A study of Mus musculus with 9 samples.

Results

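Follicular helper T (Tfh) cells sorted from mouse Peyer's patches were examined for the RNA of another tissue, the intestinal epithelium that covers these lymphoid organs. The 32 genes described here were fixed by name as markers of epithelial cells and all 32 were found among the 54146 genes of the deposited table. Libraries came from TGFBR1 WT/mut mice (WT/mut, n = 5, replicates 6 to 10), named as having a wild-type and a mutant allele of a TGF-beta receptor gene, and from WT mice, called littermates in the design text (n = 4, replicates 1, 3, 4 and 5). Per the labels, cells were gated as CD4+CXCR5+PD1+ and 300 pg of RNA per library was amplified with a kit that does not mark the strand. The labels give neither the nature of the mutation, nor age, sex, which animals shared a litter, sorting day or segment of intestine, and nothing in them ties each library to an animal of its own. The p-values below therefore reflect how these libraries vary, which may be technical.

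A single layer of epithelium lines the small intestine. Its absorptive enterocytes digest and take up nutrients and pack dietary fat with apolipoproteins. Secretory cells, namely goblet, Paneth, enteroendocrine and tuft cells, make mucus, antimicrobial proteins, hormones and alarm signals. Over each Peyer's patch lies the follicle-associated epithelium, which contains M cells that carry gut antigen inward and which attracts lymphocytes with the chemokine Ccl20. These epithelial cells lack CD4, by which the T cells were gated.

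The T cell genes Cd3e and Cxcr5 were abundant. Cd3e, a subunit of the T cell receptor complex, averaged 259 ± 12.6 CPM (counts per 1000000 scaled counts, SD, n = 5) in WT/mut and 251 ± 39.7 CPM (n = 4) in WT libraries, and Cxcr5, the follicle homing receptor used in the sort, averaged 1182 ± 59.4 CPM in WT/mut, against 1317 ± 63.3 CPM in WT libraries. Total counts per library lay between 29488783 and 43872686, and 17904 to 20264 genes had a count in each library but 1. WT/mut replicate 7 stood apart with 30143 such genes. A count of 0 allows a level of up to 0.0692 to 0.107 CPM, depending on the library (3 counts, counting error only).

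The epithelial RNA was a trace in every library, and its amount differed widely between them. All 32 markers together made up 0.0120%, 0.00754%, 0.0462%, 0.0731% and 0.0297% of the scaled counts in WT/mut replicates 6, 7, 8, 9 and 10, and 0.0499%, 0.0617%, 0.169% and 0.0592% in WT replicates 1, 3, 4 and 5. WT/mut replicates 6 and 7 were thus the lowest, WT replicate 4 was the highest, and the groups overlapped. WT replicate 4 had the highest level of 24 of the 32 genes, while WT/mut replicate 6 or 7 had the lowest level of 11 and 13 genes. In RNA from sorted cells, fewer epithelial cells and less RNA per epithelial cell cannot be told apart. Whether all of this marker RNA came from epithelial cells in the sort was not tested.

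**Figure D1:**
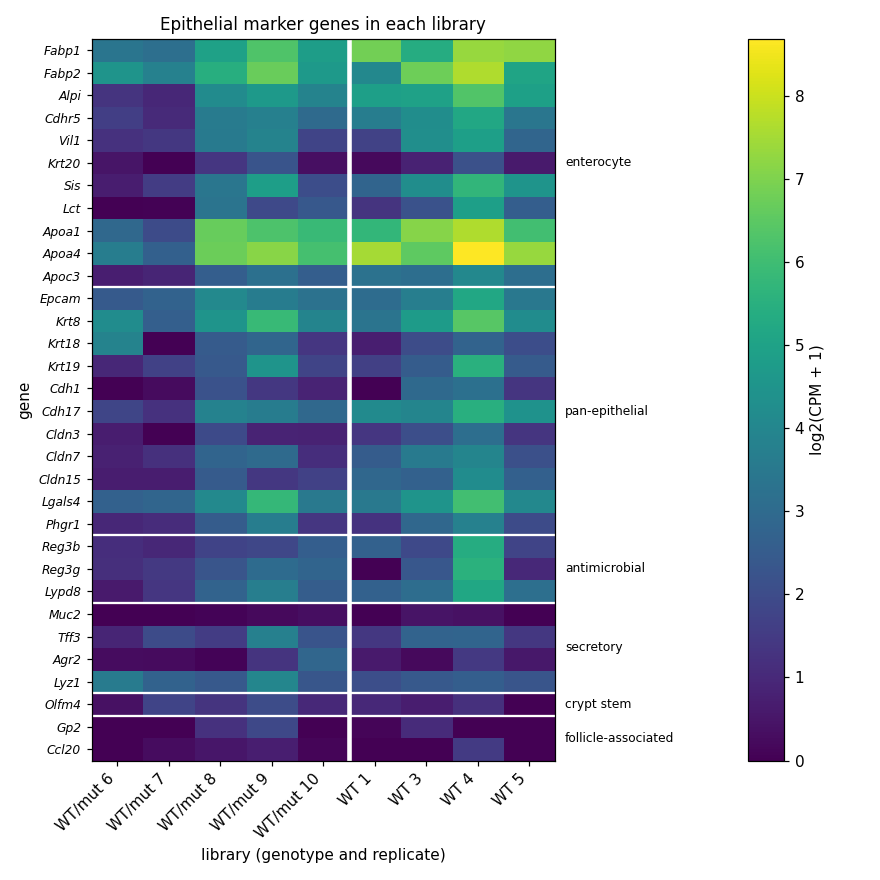
Level of each of the 32 epithelial markers (rows, grouped by class) in each library (columns, WT/mut left of the white line and WT right of it), as log2(CPM + 1). WT replicate 4 is brightest for most genes, and WT/mut replicates 6 and 7 are darkest.

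No marker passed the test across all genes (edgeR quasi-likelihood, Benjamini-Hochberg adjusted p under 0.05), which called 0.122% of the 15521 tested genes, 0.0322% as higher and 0.0902% as lower in WT/mut. That background was 19 genes, or 23 without WT replicate 4 and 2 to 8 without any 1 of the other libraries. Of the 32 markers 29 passed the filter on low counts, and Muc2, Gp2 and Ccl20 did not. Among the 29, adjusted p ranged from 0.262 to 0.992, 24 had a negative log2 fold change (WT/mut over WT) and 5 a positive one, and the median was -1.34, against a median of 0.0015 and 49.8% negative values over all tested genes. Without WT replicate 4 the median was -0.41, with 18 of 30 tested markers negative. At an unadjusted p under 0.05 there were 6 markers with a negative value (Fabp1, Alpi, Cdhr5, Reg3b, Cdh17 and Cldn15) and 1 with a positive value (Lyz1), a level reached by 6.46% and 5.69% of all tested genes in those directions and by 12.2% in both. The count of 7 was 3 without WT replicate 4, 4 without WT replicate 3 and 14 without WT/mut replicate 9, in fits where 16.7%, 14.9% and 9.46% of all genes reached that level. DESeq2 called 1 marker, Cldn15, where it called 1.82% of all genes and 0.902% as lower in WT/mut. It gave no p for Reg3b and Krt19 and no adjusted p for Krt20, Agr2 and Olfm4, so these markers could not be called. The DESeq2 shares are over all 15521 genes, with or without an adjusted p. With limma-voom 0 markers passed, and 12 had an unadjusted p under 0.05, a level that 13.4% of all genes reached.

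**Figure D2:**
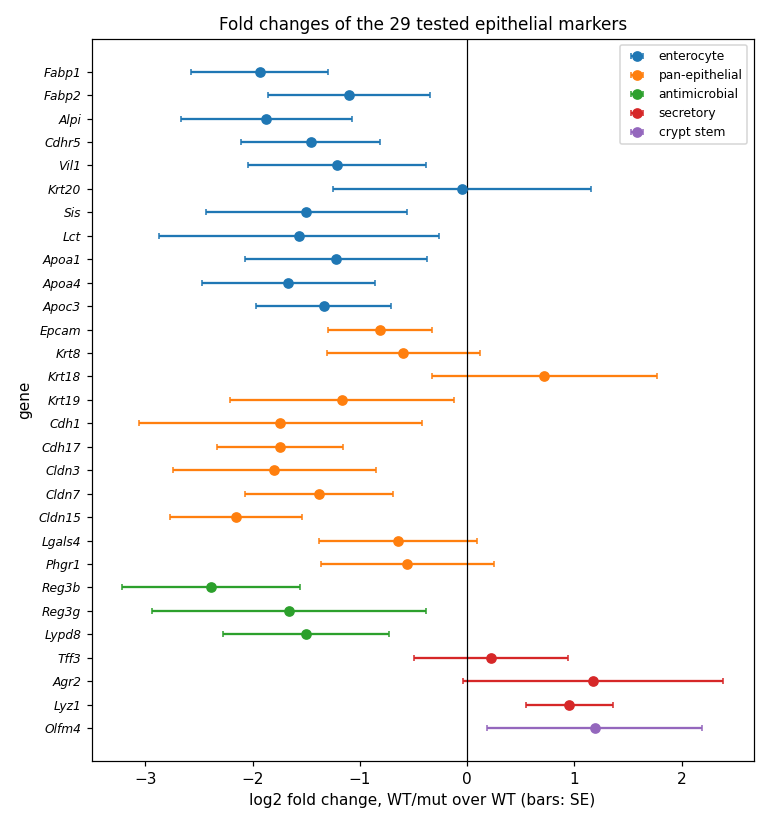
Log2 fold change (WT/mut over WT) of the 29 tested markers, with bars for the SE, coloured by class. All 11 enterocyte markers and all 3 antimicrobial markers lie left of 0, while the 3 tested secretory markers lie right of it. None passed the adjusted threshold.

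Absorptive enterocyte genes had the highest sum of any class in all 9 libraries, although in WT/mut replicates 6 and 7 they made up 56.1 of 119.6 and 35.8 of 75.4 CPM of all markers. Summed over the 11 markers of this class, WT/mut replicates 6 to 10 had 56.1, 35.8, 342, 490.4 and 216 CPM, a mean of 228 ± 193 (SD, n = 5), and WT replicates 1, 3, 4 and 5 had 421, 474, 1212 and 488 CPM, a mean of 649 ± 376 (SD, n = 4). WT/mut replicate 9 lay above 3 of the WT libraries, so the groups overlapped. Without WT replicate 4 the WT mean was 461 ± 35.3 CPM, and the 3 remaining WT libraries were close together. All 11 members had a negative log2 fold change, with a median of -1.46. Without WT replicate 4 the median was -0.82 and 10 of 11 were negative.

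Fabp1, the fatty acid carrier also found in liver, was the most abundant marker per length of transcript. Its level averaged 55.0 CPM per kb of exon in WT/mut libraries and 210 CPM per kb in WT libraries, against 63.4 CPM per kb in WT/mut and 61.5 CPM per kb in WT for Cd3e. In CPM, Fabp1 stood at 9.41, 7.94, 30.5, 76.6 and 27.7 in WT/mut replicates 6 to 10 and at 113, 40.3, 161 and 149 in WT replicates 1, 3, 4 and 5. WT replicate 3 fell within the WT/mut range, and the other 3 WT libraries lay above it. Its log2 fold change was -1.93 ± 0.64 (SE, edgeR adjusted p = 0.312). Fabp2, the intestinal fatty acid carrier, had 21.6, 13.1, 42.4, 104 and 24.7 CPM in WT/mut, against 15.5, 107, 198 and 32.3 CPM in WT libraries. WT replicates 3 and 4 lay above the highest WT/mut library, and WT replicates 1 and 5 lay within the WT/mut range. The log2 fold change was -1.10 ± 0.75 (edgeR adjusted p = 0.550), and -0.33 without WT replicate 4.

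The apolipoprotein genes Apoa1, Apoa4 and Apoc3 lie side by side on chromosome 9 and coat the fat particles that enterocytes export. Apoa4 (chromosome 9, 46240696 to 46243459 on GRCm38) had 11.8, 5.30, 105, 141 and 68.9 CPM in WT/mut, against 180.2, 92.3, 410.0 and 161 CPM in WT libraries, with a log2 fold change of -1.67 ± 0.81 (edgeR adjusted p = 0.436). Apoa1 had 6.62, 2.95, 99.5, 75.9 and 58.5 CPM in WT/mut, against 52.5, 137, 199 and 66.0 CPM in WT libraries (log2 fold change -1.22 ± 0.85, adjusted p = 0.556). Both were high in WT replicate 4 and low in WT/mut replicates 6 and 7, with overlap among the other libraries. Apoc3 averaged 3.96 ± 3.17 CPM in WT/mut, against 10.0 ± 3.87 CPM in WT libraries (log2 fold change -1.34 ± 0.63, adjusted p = 0.421).

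Brush border genes followed. Alpi, the intestinal alkaline phosphatase, had 1.44, 0.973, 17.3, 24.2 and 13.6 CPM in WT/mut, against 28.8, 30.5, 79.7 and 29.3 CPM in WT libraries. It was 1 of 3 tested markers whose ranges did not overlap, along with Cdh17 and Cldn15, and such separation was seen for 4.46% of all tested genes, and with WT/mut lower for 2.38%. Its log2 fold change was -1.87 ± 0.80 (edgeR adjusted p = 0.391). The protocadherin gene Cdhr5, which links microvilli, was at -1.46 ± 0.65 (adjusted p = 0.403). Vil1, an actin-bundling protein of microvilli, was at -1.21 ± 0.83 (adjusted p = 0.550), but it shares exon sequence with Usp37 on the other strand, whose 12446 counts exceeded its own 3069 over all libraries. The disaccharidase genes Sis (sucrase-isomaltase) and Lct (lactase) were at -1.497 ± 0.94 and -1.57 ± 1.31 (adjusted p = 0.522 and 0.630). Without WT replicate 4, Vil1 was at -0.58 and Sis at -0.82. Lct had 28.6 CPM in WT replicate 4 and at most 9.21 CPM in any other library, and its log2 fold change was -0.044 without that replicate. Krt20, a keratin of mature surface cells, averaged 1.20 CPM in WT/mut, against 1.24 CPM in WT libraries (-0.045 ± 1.20, adjusted p = 0.992), and its log2 fold change was 1.27 without WT replicate 4.

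The 250 bases before the start sites of Sis, Fabp1 and Alpi are printed because these enterocyte genes carry letters of the motifs of the intestinal factors CDX, HNF1 and HNF4, and their RNA served here as the enterocyte readout. RefSeq promoters (GRCm38.p6) were matched for 27 of the 32 markers. Capitals mark, on either strand, TTTATNG (CDX), GTTAAT (a half-site of HNF1) and CAAAGTNCA (HNF4), and no capital belongs to more than 1 match.
Sis (chr3:72967864-72968113, minus strand): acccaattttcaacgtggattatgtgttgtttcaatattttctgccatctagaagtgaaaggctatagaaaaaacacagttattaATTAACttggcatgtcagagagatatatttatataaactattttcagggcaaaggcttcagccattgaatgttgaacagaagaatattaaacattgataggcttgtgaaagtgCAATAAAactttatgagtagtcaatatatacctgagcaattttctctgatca
Fabp1 (chr6:71199629-71199878, plus strand): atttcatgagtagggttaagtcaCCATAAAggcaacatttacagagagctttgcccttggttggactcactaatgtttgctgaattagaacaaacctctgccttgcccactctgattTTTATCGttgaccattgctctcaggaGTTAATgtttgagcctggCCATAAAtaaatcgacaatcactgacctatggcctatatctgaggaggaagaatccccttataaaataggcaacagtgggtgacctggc
Alpi (chr1:87101607-87101856, minus strand): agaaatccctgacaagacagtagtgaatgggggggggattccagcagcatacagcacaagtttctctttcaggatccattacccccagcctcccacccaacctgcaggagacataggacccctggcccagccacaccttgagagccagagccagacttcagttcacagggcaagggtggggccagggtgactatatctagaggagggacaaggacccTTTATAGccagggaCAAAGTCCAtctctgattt
Among the 10 enterocyte markers with a promoter entry, TTTATNG occurred in 5, GTTAAT in 2 and CAAAGTNCA in 3. Over all 32851 windows of the same length the shares were 9.81%, 6.43% and 1.19%. A match describes letters and not binding.

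**Figure D3:**
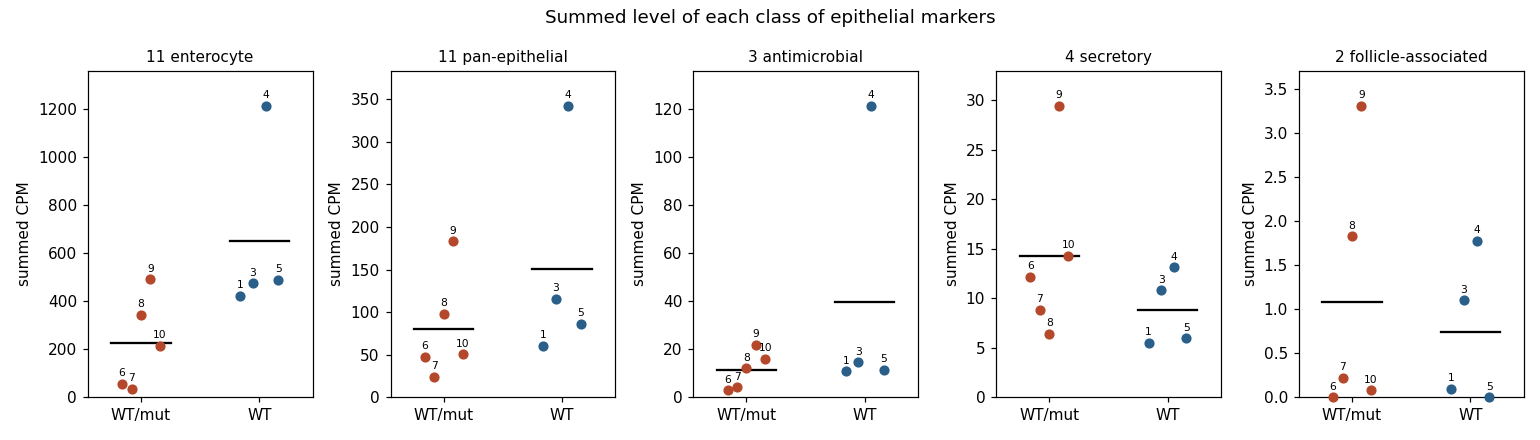
Summed CPM of each class of markers in each library (points, labelled with the replicate number, WT/mut left of WT), with a line at each group's mean and a separate linear axis for each class. WT replicate 4 is the top point for enterocyte, pan-epithelial and antimicrobial markers, and WT/mut replicate 9 is the top point for secretory and follicle-associated markers.

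The class called pan-epithelial here, which also holds genes of the gut such as Cdh17, Cldn15 and Lgals4, gave a smaller contrast as a sum. The 11 pan-epithelial markers summed to 48.0, 23.9, 97.9, 183 and 50.4 CPM in WT/mut and to 60.8, 116, 342 and 86.4 CPM in WT libraries, means of 80.7 ± 63.3 and 151 ± 129 CPM (SD). The WT mean was 87.6 ± 27.4 CPM without replicate 4, close to that of WT/mut. Epcam, the surface adhesion molecule used to sort epithelial cells, had 4.54, 5.71, 16.02, 11.6 and 8.58 CPM in WT/mut, against 7.38, 12.2, 35.6 and 10.1 CPM in WT libraries, with a log2 fold change of -0.81 ± 0.48 (edgeR adjusted p = 0.497) and of -0.089 without WT replicate 4. The groups overlapped, and Epcam was above the floor in all 9 libraries. Krt8, a keratin of simple epithelia, had 17.8, 5.15, 21.7, 56.3 and 14.1 CPM in WT/mut, against 9.15, 26.5, 85.5 and 17.6 CPM in WT libraries. Lgals4, a galectin of the gut, had 5.47, 6.18, 15.9, 53.4 and 10.4 CPM in WT/mut, against 10.5, 21.5, 66.1 and 15.8 CPM in WT libraries. In both genes WT replicate 4 and WT/mut replicate 9 were the highest libraries of their groups, and the groups overlapped. The log2 fold changes of Krt8 (-0.59 ± 0.72), Lgals4 (-0.64 ± 0.74), Phgr1 (-0.56 ± 0.81) and the keratin gene Krt19 (-1.17 ± 1.05) were positive without WT replicate 4, and their edgeR adjusted p lay between 0.655 and 0.803.

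Cldn15 and Cdh17 were the members of this class whose groups did not overlap. Cldn15, which forms sodium-permeable pores between intestinal cells, had 0.631, 0.628, 4.70, 1.67 and 2.19 CPM in WT/mut, against 6.43, 5.51, 17.8 and 5.35 CPM in WT libraries. Its log2 fold change of -2.15 ± 0.62 had the lowest p of all markers (edgeR adjusted p = 0.262, DESeq2 adjusted p = 0.0221), and was -1.54 without WT replicate 4. Cdh17, the liver-intestine cadherin, had 2.496, 1.38, 13.4, 11.5 and 6.71 CPM in WT/mut, against 16.7, 14.5, 43.2 and 20.5 CPM in WT libraries (-1.74 ± 0.59, edgeR adjusted p = 0.312). The classical epithelial cadherin Cdh1 (-1.74 ± 1.32) and the claudins Cldn3 (-1.80 ± 0.95) and Cldn7 (-1.38 ± 0.69) had adjusted p between 0.444 and 0.592, and Cldn3 was at -1.06 without WT replicate 4. Krt18, the partner of Krt8 in filaments, was the member with a positive value (0.72 ± 1.05, adjusted p = 0.802). It stood at 13.8 CPM in WT/mut replicate 6 and at 0 in WT/mut replicate 7, and its sign turned without WT/mut replicate 6 (-0.039).

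Antimicrobial genes, which epithelial cells make against gut bacteria, were high in 1 library. Reg3b, Reg3g and Lypd8 summed to 2.98, 4.24, 12.1, 21.9 and 15.9 CPM in WT/mut and to 10.9, 14.6, 121 and 11.5 CPM in WT libraries. Reg3b, a lectin that binds bacteria, had 1.20, 0.941, 2.33, 2.60 and 5.04 CPM in WT/mut, against 5.41, 2.78, 40.3 and 2.42 CPM in WT libraries. WT replicate 4 stood alone, and the other libraries overlapped. Its log2 fold change was -2.39 ± 0.83 (edgeR adjusted p = 0.322) and -0.54 without that replicate. Reg3g, its relative on chromosome 6, had 1.23, 1.69, 3.93, 7.23 and 6.00 CPM in WT/mut, against 0, 4.17, 45.7 and 1.02 CPM in WT libraries. Its log2 fold change was -1.66 ± 1.28 (adjusted p = 0.601) and 1.21 without WT replicate 4. Lypd8, a surface protein that holds flagellated bacteria off the epithelium, had 0.541, 1.60, 5.81, 12.1 and 4.90 CPM in WT/mut, against 5.48, 7.62, 35.4 and 8.03 CPM in WT libraries (-1.502 ± 0.78, adjusted p = 0.455, and -0.496 without WT replicate 4). Without that replicate the class averaged 11.4 ± 7.97 CPM in WT/mut, against 12.3 ± 1.98 CPM in WT libraries. Of the related genes, Reg1 had 80.5 CPM in WT/mut replicate 9, 129.7 CPM in WT replicate 4 and at most 17.7 CPM elsewhere, and Reg3a had 10.9 CPM in WT replicate 4 and at most 2.81 CPM elsewhere.

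Secretory markers had no negative log2 fold change among the 3 tested, with a median of 0.95. Muc2, Tff3, Agr2 and Lyz1 summed to 12.2, 8.82, 6.42, 29.4 and 14.3 CPM in WT/mut and to 5.48, 10.8, 13.1 and 5.96 CPM in WT libraries, means of 14.2 ± 9.01 and 8.84 ± 3.74 CPM. The ranges overlapped, and WT replicate 4 was not the top library. Muc2, the gel-forming mucin of goblet cells, had at most 0.360 CPM in any library and was not tested. Tff3, a goblet cell peptide that protects the mucosa, had 0.872, 2.92, 1.94, 12.8 and 3.73 CPM in WT/mut, against 1.68, 5.87, 6.02 and 1.66 CPM in WT libraries (0.22 ± 0.71, edgeR adjusted p = 0.921). Only WT/mut replicate 9 lay above the WT range, and without it the log2 fold change was -0.68. Agr2, which helps fold mucins, had 0.210, 0.188, 0.0531, 1.496 and 6.27 CPM in WT/mut, against 0.538, 0.168, 1.75 and 0.462 CPM in WT libraries (1.18 ± 1.21, adjusted p = 0.702). It was highest in WT/mut replicate 10, and its log2 fold change was -0.59 without that library.

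Lyz1, the Paneth cell lysozyme, had 11.1, 5.71, 4.38, 14.9 and 4.03 CPM in WT/mut, against 3.26, 4.41, 5.03 and 3.83 CPM in WT libraries (0.95 ± 0.41, adjusted p = 0.386). WT/mut replicates 6 and 9 were high, and the others lay within or near the WT range. Lyz1 made up 28.2% to 91.1% of the secretory sum per library in WT/mut and 38.4% to 64.3% in WT. The Lyz1 gene sits next to Lyz2, the lysozyme of macrophages, on chromosome 10, and both coding sequences of 447 bases are identical at 425 positions (95.1%), with the longest identical run at 118 bases. A stretch of 120 coding bases (37 to 156, counted from the A of the start codon) is shown because it holds 14 of the 22 coding bases that differ, in capitals. The exons of Lyz1 cover 1263 bases, and bases outside the coding sequences, which can also tell reads apart, were not compared. The letters are those of GENCODE M21 on GRCm38, and both genes lie on the minus strand.
Lyz1: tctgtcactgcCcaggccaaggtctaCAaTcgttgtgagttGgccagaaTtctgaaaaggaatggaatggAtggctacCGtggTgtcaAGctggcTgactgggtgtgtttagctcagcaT
Lyz2: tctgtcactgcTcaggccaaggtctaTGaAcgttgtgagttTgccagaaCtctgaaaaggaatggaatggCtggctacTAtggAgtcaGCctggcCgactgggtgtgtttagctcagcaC
The deposited Lyz1 value was not whole in 8 of 9 libraries, as happens when the counting model divides reads between genes. Lyz2 was far higher, at 157, 98.3, 95.1, 56.5 and 31.9 CPM in WT/mut, against 114, 25.9, 96.6 and 36.01 CPM in WT libraries. Lyz1 was 20.9% of the pair in WT/mut replicate 9, where Paneth cell defensin Defa24 was also highest (11.4 CPM, against at most 3.58 CPM elsewhere), and 6.60% in WT/mut replicate 6, where Lyz2 was highest. The part of misassigned Lyz2 reads in these Lyz1 values was not tested.

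The classes were also set against the enterocyte sum of the same library, a ratio that is high where that sum is low. Muc2, Tff3 and Agr2 together had 1.93, 8.68, 0.597, 2.96 and 4.75 CPM per 100 CPM of enterocyte markers in WT/mut and 0.527, 1.35, 0.668 and 0.435 in WT libraries. WT/mut replicate 8 lay within the WT range and the other 4 WT/mut libraries lay above it. The pan-epithelial markers had 85.6, 66.7, 28.6, 37.4 and 23.4 CPM per 100 enterocyte CPM in WT/mut and 14.4, 24.4, 28.3 and 17.7 in WT libraries, with WT/mut replicate 10 inside the WT range. The antimicrobial markers had 5.31, 11.8, 3.53, 4.47 and 7.40 CPM per 100 enterocyte CPM in WT/mut and 2.59, 3.08, 10.0 and 2.35 in WT libraries, where WT replicate 4 lay within the WT/mut range and the other 3 below it. The libraries with the least enterocyte RNA, WT/mut replicates 6 and 7, had the highest pan-epithelial values.

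**Figure D4:**
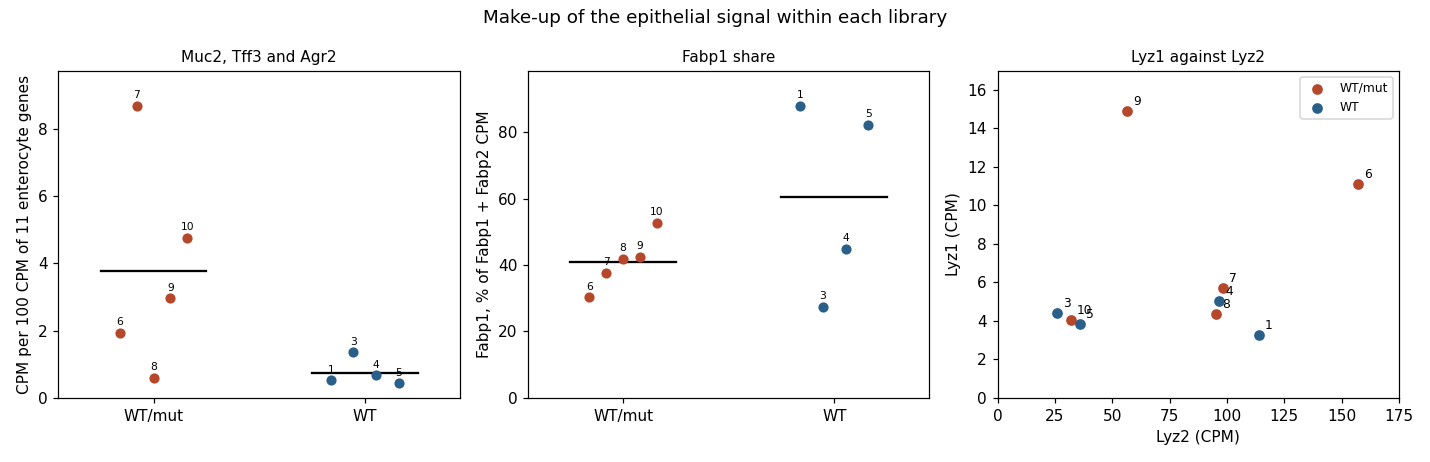
Left, CPM of Muc2, Tff3 and Agr2 per 100 CPM of the 11 enterocyte markers, and middle, Fabp1 as a percentage of Fabp1 plus Fabp2, in each library (points labelled with the replicate number, line at the group mean, WT/mut left of WT). Right, Lyz1 against Lyz2 in CPM, with WT/mut replicates 6 and 9 above the other 7 libraries in Lyz1.

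The ratio of the 2 fatty acid carriers varied between libraries of 1 genotype. Fabp1 was 88.0% and 82.2% of the Fabp1 and Fabp2 sum in WT replicates 1 and 5 but 27.4% and 44.9% in WT replicates 3 and 4. In WT/mut replicates 6 to 10 it was 30.3%, 37.7%, 41.8%, 42.5% and 52.8%. Fabp6, the bile acid carrier of ileal enterocytes, had 16.2 and 23.8 CPM in WT replicates 3 and 4 and 0.317 and 0.531 CPM in WT replicates 1 and 5, with 1.44, 1.54, 0.822, 8.19 and 0.493 CPM in WT/mut libraries. Per 1000 CPM of enterocyte markers, Fabp6 was at 25.7, 42.9, 2.40, 16.7 and 2.29 in WT/mut replicates 6 to 10. On that scale WT replicates 1, 3, 4 and 5 were at 0.752, 34.2, 19.6 and 1.09, and WT/mut replicate 7 was the highest library. In WT the libraries with the higher Fabp1 share were those with little Fabp6, whereas the Fabp1 level itself was highest in WT replicate 4, which also had the most Fabp6. WT/mut replicates 8 and 10 also had little Fabp6 on either scale. Neither reached the Fabp1 share of WT replicates 1 and 5. Fabp6 was picked for this contrast after its values were seen. The segment of intestine from which the patches came is not in the labels, and its part in these values was not tested.

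Follicle-associated markers were patchy, with counts in some libraries and 0 in others. Gp2, an M cell receptor for bacteria, had 0, 0, 1.38, 2.67 and 0 CPM in WT/mut, against 0.0950, 1.10, 0 and 0 CPM in WT libraries. Ccl20, the chemokine that draws cells bearing CCR6 to the dome, had 0, 0.220, 0.451, 0.641 and 0.0822 CPM in WT/mut, against 0, 0, 1.78 and 0 CPM in WT libraries. Neither was tested. The library with the most Ccl20, WT replicate 4, had no Gp2 count. Olfm4, a marker of crypt stem cells, had 0.301, 2.42, 1.49, 3.10 and 1.01 CPM in WT/mut, against 0.981, 0.623, 1.31 and 0 CPM in WT libraries, with overlap (1.19 ± 1.00, edgeR adjusted p = 0.631).

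Further epithelial genes, listed with earlier results of these data known, gave 112 tested genes of 157 in the table, of which 0 passed with edgeR or limma-voom and 4 with DESeq2, which called 1.82% of all genes. With edgeR 17 and with limma-voom 34 had an unadjusted p under 0.05, a level that 12.2% and 13.4% of all genes reached. The enterocyte list of 35 genes had 33 tested values in the same libraries as the members, all negative, with a median of -1.52 and 9 at an unadjusted p under 0.05, a level that 12.2% of all genes reached. The count of 9 was 3 without WT replicate 4, 5 without WT/mut replicate 10 and 18 without WT/mut replicate 9, in fits where 16.7%, 11.9% and 9.46% of all genes reached it. Without WT replicate 4 the median was -0.88, with 31 of 34 tested values negative. The lowest p belonged to Cyp3a11, a drug- and steroid-oxidising enzyme, at 0.481, 0.973, 4.35, 12.0 and 4.00 CPM in WT/mut, against 65.3, 15.4, 35.4 and 17.6 CPM in WT libraries. Its ranges were separate (-2.95 ± 0.80, edgeR adjusted p = 0.250). Separate ranges were seen for 3 of the 33 tested genes of this list, and for 4.46% of all tested genes (2.38% with WT/mut lower). Slc51a, a subunit of the basolateral bile acid exporter, was at -2.48 ± 0.70 (adjusted p = 0.254), and the triglyceride enzyme Dgat1 at -0.41 ± 0.12 (adjusted p = 0.276). DESeq2 called Cyp3a11 and Slc51a. Dgat1 had at least 41.1 CPM in every library, including those poor in other enterocyte RNA.

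Lists of other lineages had values of both signs. Of 9 tested goblet genes 4 were negative (median 0.036), of 4 Paneth genes 1 was negative (median 0.22), and of 4 enteroendocrine and tuft genes 1 was negative (median 1.16). By lowest p these lists were led by Fcgbp, a mucus protein (2.65 ± 1.33, edgeR adjusted p = 0.444), Itln1, a Paneth and goblet lectin (0.37 ± 0.53, adjusted p = 0.796) and the tuft cell channel gene Trpm5 (2.23 ± 1.66, adjusted p = 0.583). Of the other goblet and Paneth genes named by that rule, St6galnac1 was at 0.22 ± 0.13, Galnt12 at -0.16 ± 0.14, Defa24 at 0.37 ± 0.65 and Defa17 at -0.20 ± 1.25. St6galnac1 had at least 71.7 CPM and Galnt12 at least 33.8 CPM in every library, including those poor in enterocyte RNA. The summed goblet list varied 1.35-fold between libraries, against 33.8-fold for the summed enterocyte markers. The source of this goblet list RNA was not tested, so its median cannot be read as unchanged goblet cell RNA. The endocrine granule gene Chgb was at -1.47 ± 1.09 and the actin regulator gene Avil at 1.46 ± 1.36. Without WT replicate 4, Chgb was at 0.52, Fcgbp at 4.80 and Trpm5 at 5.91. Fcgbp and Trpm5 were low in every library, so their values without that replicate, given here with no SE, rest on low counts.

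Secretory genes were highest in different libraries. Of the 9 tested goblet list genes, Clca1, Fcgbp and Sytl2 were highest in WT/mut replicate 10, Zg16 and Spink4 in WT/mut replicate 9, Creb3l1 in WT/mut replicate 7, St6galnac1 in WT/mut replicate 8, Galnt12 in WT replicate 1 and Foxa3 in WT replicate 4. The goblet genes Clca1 and Fcgbp were highest in WT/mut replicate 10, at 13.5 and 7.73 CPM, against at most 5.24 and 2.78 CPM in the other libraries, the same library in which Agr2 was highest. All 4 tested Paneth genes, Itln1, Defa24, Defa17 and Ang4, were highest in WT/mut replicate 9, as were Lyz1 and Tff3. The tuft cell genes Trpm5 and Avil were highest in WT/mut replicate 6, at 3.82 and 3.43 CPM, the library in which Krt18 was highest, and Dclk1 was at 5.62 and 5.71 CPM in WT/mut replicates 6 and 7. Chgb was highest in WT replicate 4, at 3.72 CPM, against at most 1.13 CPM elsewhere. These libraries were singled out after the values were seen.

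**Figure D5:**
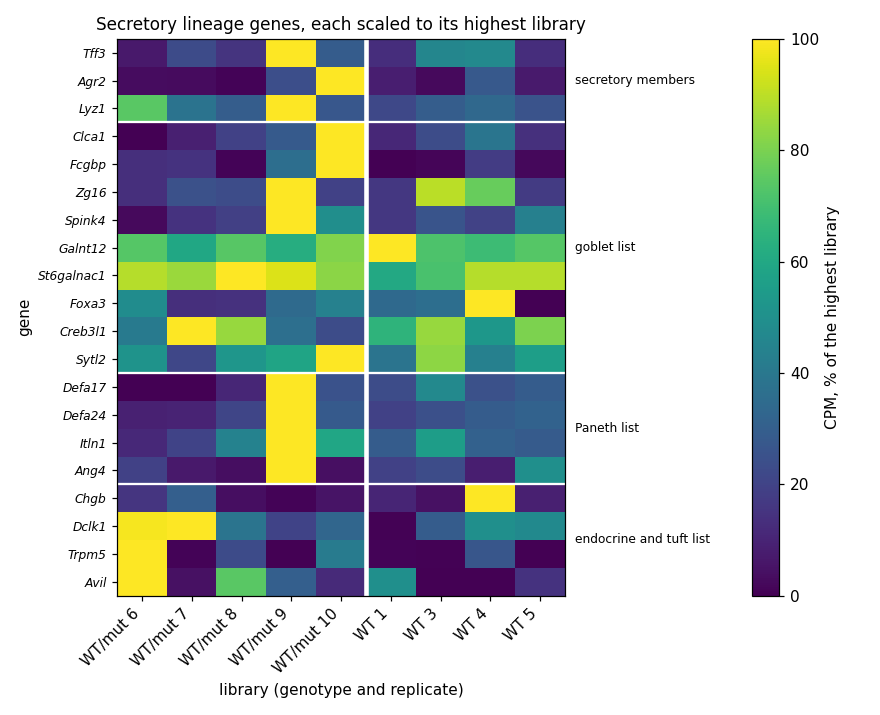
Level of each tested secretory marker and of each tested gene of the goblet, Paneth, and endocrine and tuft lists (rows), in each library (columns, WT/mut left of the white line), as a percentage of that gene's highest library. WT/mut replicate 9 is at 100% for all 4 Paneth genes, and WT/mut replicate 10 for Clca1, Fcgbp and Agr2.

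Genes associated with follicle-associated epithelium and M cells had values of both signs, with 5 of 14 tested values negative (median 0.19). Tnfaip2, an M cell gene that myeloid cells also express, averaged 5.33 ± 3.50 CPM in WT/mut, against 1.20 ± 0.567 CPM in WT libraries (2.14 ± 0.63, edgeR adjusted p = 0.273). Spib, a transcription factor of M cells and of B cells, averaged 4.76 ± 3.01 CPM in WT/mut, against 1.22 ± 1.08 CPM in WT libraries (1.96 ± 0.66, adjusted p = 0.312). Anxa5, a phospholipid-binding protein common to many cells, was at -0.51 ± 0.12 (adjusted p = 0.182). DESeq2 called Tnfaip2 and Anxa5, where it called 1.82% of all genes, and edgeR and limma-voom called 0 genes of this list. The crypt list had 4 of 8 tested values negative, with Cd44 at 0.41 ± 0.13, Rnf43 at 0.39 ± 0.14 and Slc12a2 at 0.27 ± 0.15. All 3 had at least 24.2 CPM in every library, including those poor in enterocyte RNA. The lowest edgeR adjusted p of the crypt list was 0.278, and the source of its RNA was not tested. In the list of junction, keratin and epithelial factor genes 30 of 40 tested values were negative (median -0.39), led by the protease gene Tmprss2 (-2.09 ± 0.64, adjusted p = 0.278), the protease inhibitor gene Spint2 (-0.21 ± 0.10, adjusted p = 0.431) and the nuclear receptor gene Hnf4g (-1.45 ± 0.72, adjusted p = 0.444, and -0.78 without WT replicate 4).

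Markers of other cell types were measured beside these values. Summed over their lists, the 12 genes of Tfh and other T cells ranged from 8812 to 9244 CPM in WT/mut and from 9898 to 10613 CPM in WT libraries, without overlap, and 9 of the 12 had negative log2 fold changes. B cell genes ranged from 1002 to 1940 CPM in WT/mut and from 775 to 1483 CPM in WT libraries, myeloid genes from 65.5 to 359.9 CPM in WT/mut and from 71.3 to 207 CPM in WT libraries, and red cell genes from 402 to 870.0 CPM in WT/mut and from 98.7 to 283 CPM in WT libraries. All 12 tested B cell genes, 10 of 12 myeloid genes, all 6 red cell genes, 8 of 12 plasma cell genes and 7 of 8 stromal and endothelial genes had positive log2 fold changes, against 5 of the 29 epithelial markers. Plasma cell genes summed to between 2364 and 3451 CPM in WT/mut and between 2239 and 2804 CPM in WT libraries, and stromal and endothelial genes to between 174 and 229.8 CPM in WT/mut and between 144 and 203 CPM in WT libraries. The plasma cell gene Jchain averaged 164 ± 86.4 CPM in WT/mut, against 22.6 ± 13.6 CPM in WT libraries (2.86 ± 0.53, edgeR adjusted p = 0.0904). Of the genes of intraepithelial lymphocytes, T cells that live between enterocytes, 5 of 11 were negative, and Cd8a stood at 0 to 0.961 CPM in WT/mut and 0.538 to 1.96 CPM in WT libraries. Kit, a receptor gene of that list, averaged 9.93 ± 3.89 CPM in WT/mut, against 42.1 ± 11.2 CPM in WT libraries (-2.09 ± 0.31, edgeR adjusted p = 0.0334, from 0.0333 to 0.108 without 1 library), and passed in 1 of the 9 fits that left out a library, the one without WT replicate 1. Tek, an endothelial receptor gene, had 0.962, 2.54, 1.38, 1.32 and 1.37 CPM in WT/mut and 0 in all 4 WT libraries (edgeR adjusted p = 0.0321, from 0.0339 to 0.0896 without 1 library), and passed only without WT replicate 4 among those fits. Both were named after their values were seen. The intraepithelial list summed to 162 to 217 CPM in WT/mut and 160.2 to 214 CPM in WT libraries. Among genes that define these types, the B cell gene Ms4a1 was at 1.23 ± 0.64, the plasma cell gene Sdc1 at -0.21 ± 0.68, the macrophage receptor gene Csf1r at 0.94 ± 0.62, the gamma-delta T cell gene Trdc at 0.49 ± 0.45, the collagen gene Col1a1 at 0.17 ± 1.04, Pecam1 at 0.093 ± 0.13 and the globin gene Hbb-bs at 1.59 ± 0.31 on the log2 scale, with edgeR adjusted p from 0.0951 to 0.958. The sorted markers Cd4 and Pdcd1 were at 0.14 ± 0.13 and -0.034 ± 0.13. DESeq2 called 4 of 6 tested red cell genes and 4 of 12 tested plasma cell genes as higher in WT/mut. As lower it called 3 of the 12 genes of Tfh and other T cells. Of the 11 tested intraepithelial genes it called 1 in each direction, and of the B cell, myeloid, and stromal and endothelial genes 0. Over all genes it called 1.82%, and 0.902% as lower in WT/mut. The part of these other cells in the epithelial values was not tested.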

How the data were processed

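The authors deposited expected counts for each gene in 1 table. The submitters' processing notes name cutadapt 2.10, STAR 2.5.3, RSEM 1.3.0, DESeq2 and the build mm10, with no annotation release among the names read here. In each library 11.1% to 18.3% of values were not whole, and all were rounded. RSEM shares reads between similar genes by a model, so values of Krt8, which was not whole in any of the 9 libraries, and of Lyz1 and Apoa4, which were not whole in 8, are uncertain.

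The edgeR 4.0.16 quasi-likelihood test (R 4.3.3, robust fit, TMM factors, no covariate) was run on the 15521 genes passing filterByExpr (minimum count 10, minimum total 15), with Benjamini-Hochberg adjustment at 0.05. SE is the absolute log2 fold change over the square root of F. CPM values use TMM-scaled library sizes over tested genes. Total counts per library were 29488783 to 43872686, and floors cover counting error only. Exon lengths and positions are from GENCODE M21 (GRCm38), which held 54079 of 54146 identifiers. Alternatives used DESeq2 1.42.0, limma 3.58.1, other scalings and filters, and each library left out.

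All members are named, with values per library for up to 4 tested members of highest mean CPM in each class, as are the 3 tested genes of lowest p in each further epithelial list, paralogs and defining genes of other cell types, of which 1 is not reported here. Other genes with values (Fabp6, Clca1, Dclk1, Ang4, Reg1, Kit, Tek) were chosen after their values were seen. Beyond that rule, values per library were also printed for Alpi and Cldn15, whose groups did not overlap, and for Gp2 and Ccl20, which were not tested. Members and lists were chosen with earlier results of these data known.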

Additional observations from a re-analysis of the deposited data

Results flagged for a closer look

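Of 64 sets of 4 or 5 libraries (32 markers in each genotype) 15 had 1 library set apart from the rest by a gap above the 95% critical value for such a set. That critical value assumes normally distributed values, whereas these were CPM without a log. The sets were also not independent, because the markers varied together in the same libraries. The count of 15 can therefore not be set against a chance rate. In 9 of the 15 it was WT replicate 4, the high library, with 79.7 CPM of Alpi, 28.6 of Lct, 15.8 of Apoc3, 40.3 of Reg3b, 45.7 of Reg3g, 35.4 of Lypd8, 1.78 of Ccl20, 44.7 of Krt19 and 17.8 of Cldn15. The next WT values were 30.5, 5.10, 8.64, 5.41, 4.17, 8.03, 0, 4.82 and 6.43 CPM. WT replicate 3 was set apart for Gp2 (1.10 CPM).

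WT/mut replicate 9 was set apart for Tff3 (12.8 CPM), Krt19 (21.4 CPM) and Lgals4 (53.4 CPM), WT/mut replicate 10 for Agr2 (6.27 CPM) and WT/mut replicate 8 for Cldn3 (2.89 CPM). Among sums, WT replicate 4 was set apart for the enterocyte markers (1212 CPM), the antimicrobial markers (121 CPM) and all markers (1692 CPM, against at most 617 CPM in the other WT libraries).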

How the results depend on the processing

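Of 16 alternatives 15, with edgeR or limma-voom, called 0 markers, and DESeq2 called 1 (Cldn15, log2 fold change -2.16). Genes called over the whole table were 19, or 283 with DESeq2, and 2 to 23 without 1 library (23 without WT replicate 4, and at most 8 without any other). Without 1 library the median log2 fold change ranged from -1.77 to -0.41 over all markers, from -1.78 to -0.82 over enterocyte markers, from -2.12 to -0.50 over antimicrobial markers, from -1.72 to -0.089 over pan-epithelial markers and from 0.28 to 1.11 over secretory markers, whose median was -0.084 with limma-voom. Signs turned for 9 of 29 tested markers and in no alternative for 20. The values of those 9 without 1 library ranged from -1.11 to 1.27 for Krt20, -0.68 to 0.53 for Tff3, -0.59 to 2.08 for Agr2, -2.08 to 1.21 for Reg3g, -1.23 to 0.37 for Krt8, -0.039 to 1.19 for Krt18, -2.48 to 0.69 for Krt19, -1.58 to 0.20 for Lgals4 and -1.50 to 0.18 for Phgr1. With limma-voom Tff3 was at -0.15, Agr2 at -0.084, Reg3g at 1.11 and Krt18 at -0.67. The cause was not tested. No paired analysis was possible because the labels do not give which animals shared a litter. Low levels limit Gp2, Ccl20 and Muc2, whose values in a fit without a filter were 1.39 ± 1.93, -0.68 ± 1.76 and -0.82 ± 1.95 (SE).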
